A study of Homo sapiens with 6 samples.

Results

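The genes described here are the metallothioneins MT1A, MT1E, MT1F, MT1G, MT1H, MT1M, MT1X and MT2A together with MTF1 and SLC30A1, 10 genes that were chosen by the shift of their measured probes between both groups of arrays. The values that selected them are therefore given as a description with no p-value, and where their probes are counted past a threshold, nothing is read from the count. Of the 10 genes, 9 had a named probe among the 18665 named genes of the array, and MT1A was not analysed here. These 9 genes had 12 of the 48802 probes. A mean log2 signal of at least 7 over the 6 arrays was reached by 9 probes of 8 genes, while MT1M, 1 probe of MT1E and 1 probe of MT1H stayed under it.

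Gene expression was measured in LNCaP cells, an androgen-sensitive prostate cancer line established from a lymph node metastasis. Cells grown in RPMI with 10% FBS were transfected for 24 h with 30 nM of the microRNA miR-331-3p or of miR-NC, a negative control, using Lipofectamine 2000 in both groups. Total RNA was hybridized to Illumina Human-6 v3 arrays, of which 3 were labelled miR-331-3p and the other 3 miR-NC, with the letters A, B and C in each group. The labels do not say whether arrays of a group came from separate cultures. RNA came from whole cultures of 1 line, so that a change in every cell and a change in the share of cells that express a gene cannot be told apart.

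Metallothioneins are small cysteine-rich proteins that bind zinc and copper, as well as toxic metals such as cadmium. When free zinc rises, the transcription factor MTF1 binds metal response elements in their promoters and in that of SLC30A1, which carries zinc out of the cell across the plasma membrane. Normal prostate epithelium is known for a high zinc content, which is lost in prostate cancer.

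The mature sequence of the transfected microRNA is shown because it defines the treated group, with the seed, bases 2 to 8, in capitals (RefSeq, GRCh38.p14, chr12:95308480-95308500, plus strand). Whether any of the genes described here carries a match to this seed was not tested.
hsa-miR-331-3p: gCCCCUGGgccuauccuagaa

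Promoter windows are shown because MTF1 acts through short elements close to the start of metallothionein genes. RefSeq promoters of GRCh38.p14 were matched for 5 of the 10 genes, and the 250 bases before the start were searched on both strands for the core of the metal response element, TGCACNC or TGCGCNC. MT1H held 8 matches, MT2A held 7, MT1X held 4 and SLC30A1 held 1, whereas MTF1 itself held none. Of 35116 promoter windows of the same length, 24.8% held at least 1 match, 0.370% at least 4, 0.0313% at least 7 and 0.0171% at least 8. The matches are printed in capitals, on either strand, in the sequences of the 4 genes that held any. They describe letters in a window and not measured binding.
MT2A, chr16:56608334-56608583, plus strand: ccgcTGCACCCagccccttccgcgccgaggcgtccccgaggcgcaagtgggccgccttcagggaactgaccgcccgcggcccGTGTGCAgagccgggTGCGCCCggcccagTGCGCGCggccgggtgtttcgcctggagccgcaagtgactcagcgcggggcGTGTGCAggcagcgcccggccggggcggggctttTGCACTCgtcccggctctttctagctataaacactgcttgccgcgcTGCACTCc
MT1H, chr16:56669564-56669813, plus strand: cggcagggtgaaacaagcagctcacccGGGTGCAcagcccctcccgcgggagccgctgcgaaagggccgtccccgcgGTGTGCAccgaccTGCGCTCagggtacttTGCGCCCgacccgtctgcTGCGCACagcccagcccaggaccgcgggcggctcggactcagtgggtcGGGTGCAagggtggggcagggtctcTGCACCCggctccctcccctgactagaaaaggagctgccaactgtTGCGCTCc
MT1X, chr16:56682220-56682469, plus strand: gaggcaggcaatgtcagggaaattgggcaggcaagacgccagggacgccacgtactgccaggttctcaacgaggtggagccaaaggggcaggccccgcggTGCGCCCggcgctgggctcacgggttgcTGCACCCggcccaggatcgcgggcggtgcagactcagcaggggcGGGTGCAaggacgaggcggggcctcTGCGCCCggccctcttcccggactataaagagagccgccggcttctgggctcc
SLC30A1, chr1:211579162-211579411, minus strand: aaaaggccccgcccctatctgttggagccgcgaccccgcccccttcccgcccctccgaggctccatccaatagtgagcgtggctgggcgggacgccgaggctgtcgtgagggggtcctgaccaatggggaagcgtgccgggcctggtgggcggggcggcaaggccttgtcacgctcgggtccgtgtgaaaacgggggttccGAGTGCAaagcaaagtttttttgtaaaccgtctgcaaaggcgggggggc
Counted back from the start, a match lay at the same place in MT1H and MT1X, from -53 to -47, and a base further away in MT2A, from -54 to -48. MT1H and MT2A also shared a match from -8 to -2. A match on the opposite strand lay from -78 to -72 in both MT1H and MT1X. The single match of SLC30A1 lay on the opposite strand, from -49 to -43. A core of the antioxidant response element, TGACNNNGC, was found once each in the windows of MT2A, MT1X and SLC30A1, and in 10.9% of all windows. Its match in MT2A overlapped none of the metal response elements.

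**Figure D1:**
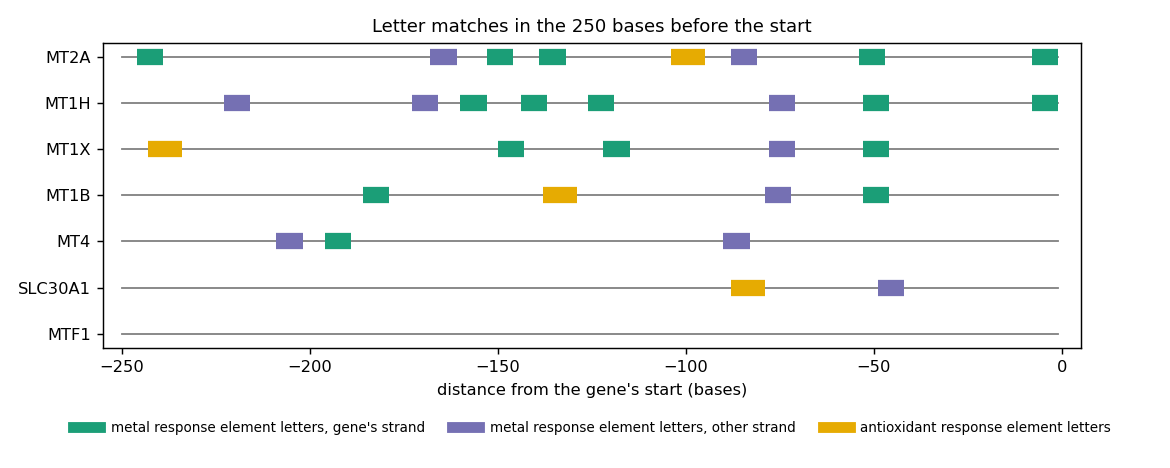
Positions of letter matches in the 250 bases before the start of each gene (x axis, bases from the start), for the 5 genes matched here and for the metallothioneins MT1B and MT4. Green and purple boxes are metal response element cores on the gene's strand and on the other strand, yellow boxes are antioxidant response element cores. MT1H holds 8 and MT2A 7 metal response element cores, against none in MTF1.

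By the labels, each tested probe of these genes had a higher mean signal after miR-331-3p than after miR-NC. In the study's own list of genes down regulated by the microRNA, members of this group appear, which is the opposite direction. The labels were kept as deposited, and if those of both groups were exchanged, each difference given here would change its sign. Metallothioneins are alike in sequence and whether each probe reads its gene alone was not tested. Of the 9 tested probes, 9 had all 3 miR-331-3p arrays above all 3 miR-NC arrays, as did 13.4% of the 16752 probes tested on the whole array. All 9 were also past the threshold of limma for a higher signal, against 4.30% of all probes. As this contrast chose the genes, nothing is read from either count. Their differences ranged from 0.37 to 1.40 on the log2 scale with a median of 0.60, or 0.51 over all 12 probes, and the median over all tested probes was -0.0028.

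MT1F, an isoform of metallothionein 1, had the widest difference among the tested probes. Its log2 signal was 9.43, 9.35 and 9.17 in the miR-NC arrays A, B and C. In the miR-331-3p arrays it was 10.57, 10.73 and 10.83. The means were 9.32 ± 0.13 and 10.71 ± 0.13 (SD, n = 3 each), a difference of 1.40, or 2.63-fold. The groups lay far apart, with 1.15 between the highest control array and the lowest array labelled miR-331-3p.

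MT1G, another inducible isoform, came next among the metallothioneins. Its signal was 11.12, 11.24 and 11.21 in the miR-NC arrays and 11.77, 11.87 and 12.11 in the miR-331-3p arrays. The means were 11.19 ± 0.063 and 11.91 ± 0.18 (SD, n = 3 each), a difference of 0.73, or 1.66-fold. The control arrays were nearly equal and those labelled miR-331-3p were spread more widely, with array C the highest.

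MT2A encodes metallothionein 2, which is made in most human tissues. Its signal was 11.47, 11.58 and 11.71 in the miR-NC arrays and 12.11, 12.24 and 12.28 in the miR-331-3p arrays. The means were 11.59 ± 0.12 and 12.21 ± 0.089 (SD, n = 3 each), a difference of 0.63, or 1.54-fold. Both groups were about equally spread and did not overlap, and array C was the highest in each.

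MT1E, a further metallothionein 1 isoform, was read by a probe above the minimum signal, called probe 1 here, and a probe 2 under it. Probe 1 gave 8.36, 8.43 and 8.48 in the miR-NC arrays and 8.91, 8.92 and 9.15 in the miR-331-3p arrays. The means were 8.42 ± 0.056 and 8.99 ± 0.13 (SD, n = 3 each), a difference of 0.57, or 1.48-fold. Arrays A and B labelled miR-331-3p were almost equal and array C stood above them. Probe 2 gave 6.75, 6.78 and 6.71 in the miR-NC arrays and 6.77 in each of the miR-331-3p arrays, a difference of 0.03, and its groups overlapped. That probe was under the minimum signal in every array, and the 2 probes thus did not give the same picture of the gene.

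MT1H, also a metallothionein 1 isoform, showed the same division between its probes. Probe 1 gave 7.95, 7.94 and 7.89 in the miR-NC arrays and 8.38, 8.17 and 8.57 in the miR-331-3p arrays. The means were 7.93 ± 0.033 and 8.38 ± 0.20 (SD, n = 3 each), a difference of 0.45, or 1.36-fold. The control arrays were close together, whereas the arrays labelled miR-331-3p spread over several times that range, with B the lowest. Probe 2 stayed under the minimum signal, at 6.79, 6.82 and 6.71 against 6.85, 6.75 and 6.66, a difference of -0.02 with overlapping groups. Leaving out any of the miR-NC arrays took probe 1 below the threshold of limma, with differences of 0.46, 0.45 and 0.43 without A, B and C.

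MT1X had the narrowest difference among the tested probes. Its signal was 11.83, 12.02 and 12.08 in the miR-NC arrays and 12.48, 12.39 and 12.19 in the miR-331-3p arrays. The means were 11.98 ± 0.13 and 12.35 ± 0.15 (SD, n = 3 each), a difference of 0.37, or 1.30-fold. The groups came within 0.10 of each other, between miR-NC array C and miR-331-3p array C. Without miR-NC A, B or C, or without miR-331-3p A or B, the probe was no longer past the threshold, with differences of 0.30, 0.40, 0.43, 0.31 and 0.36 in turn. It was also not past it when probes of low signal were kept in the fit, which took the count for these genes from 9 to 8.

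MT1M, a further metallothionein 1 isoform, was near the lower end of the signal range. It gave 6.71, 6.71 and 6.75 in the miR-NC arrays and 6.90, 6.70 and 6.89 in the miR-331-3p arrays, a difference of 0.11. Arrays A and C labelled miR-331-3p were above the controls and array B was below them, so the groups overlapped. A difference in MT1M was not measurable at this signal.

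MTF1, the zinc-sensing transcription factor of the metallothionein promoters, had a higher signal in the same arrays. It gave 8.46, 8.57 and 8.19 in the miR-NC arrays and 8.93, 9.15 and 9.11 in the miR-331-3p arrays. The means were 8.40 ± 0.20 and 9.06 ± 0.12 (SD, n = 3 each), a difference of 0.66, or 1.58-fold. The control arrays were spread more than those of any other gene described here, with C the lowest, and still lay below every array labelled miR-331-3p. The array measures its transcript only, whereas MTF1 is known to be regulated in large part through zinc binding and entry into the nucleus.

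SLC30A1 was read by 2 probes above the minimum signal, both with separated groups. Probe 1 gave 8.0, 8.27 and 8.09 in the miR-NC arrays and 8.64, 8.88 and 8.65 in the miR-331-3p arrays. The means were 8.12 ± 0.13 and 8.72 ± 0.14 (SD, n = 3 each), a difference of 0.60, or 1.52-fold. Array B was the highest of each group for this probe. Probe 2 gave 7.51, 7.59 and 7.52 against 7.93, 8.02 and 8.02, with means of 7.54 ± 0.042 and 7.99 ± 0.052 (SD, n = 3 each) and a difference of 0.45, or 1.36-fold. Both probes of the exporter thus ran the same way, and their differences were 0.60 and 0.45.

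**Figure D2:**
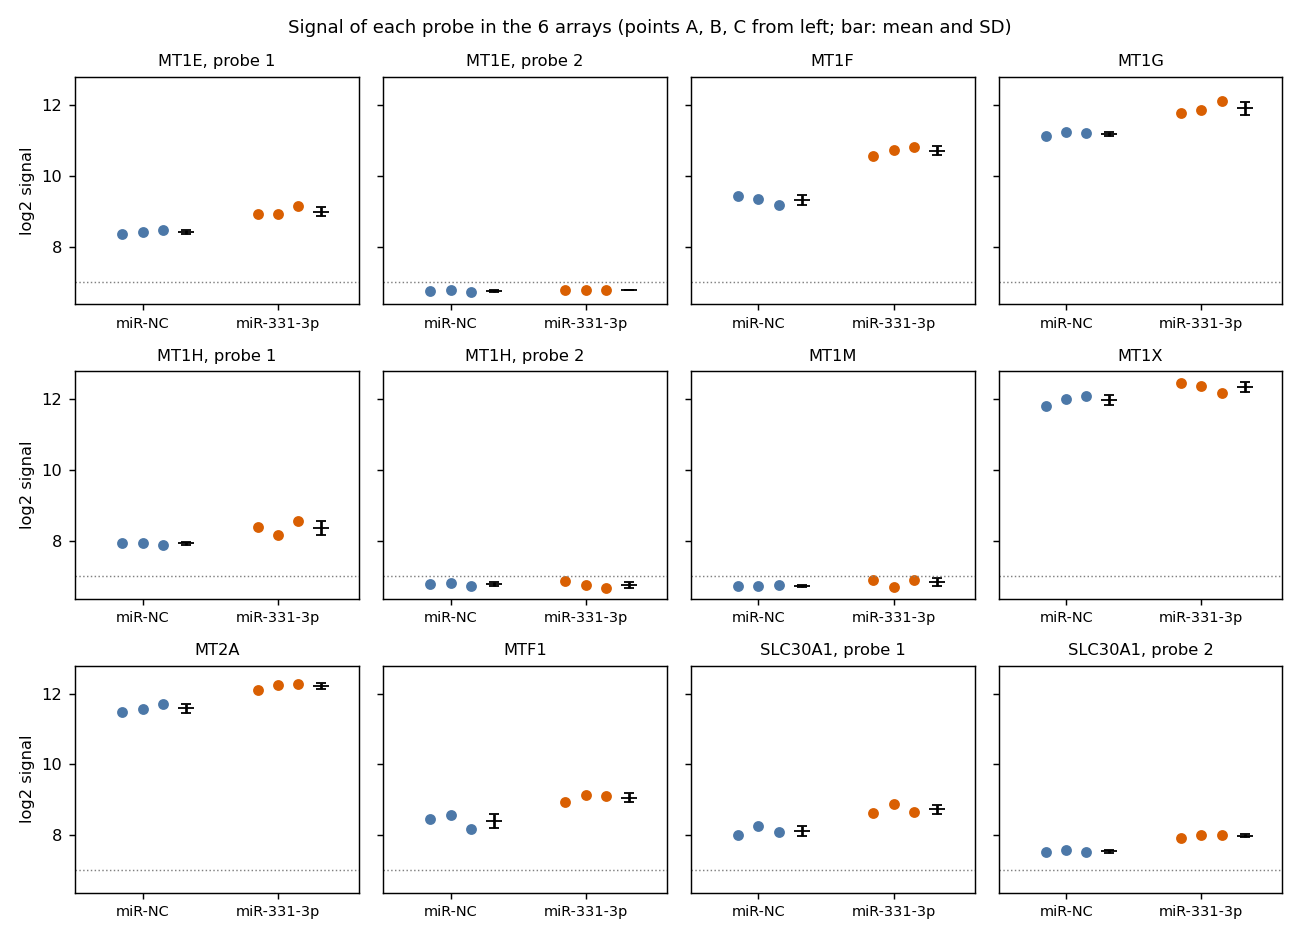
Log2 signal (y axis) of each of the 12 probes in the 3 arrays labelled miR-NC (blue) and the 3 labelled miR-331-3p (orange), points A, B and C from left, with the mean and SD at the right of each group and a dotted line at the minimum signal of 7. The groups are apart in 9 probes, and MT1M, MT1E probe 2 and MT1H probe 2 lie under the line with overlapping groups.

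Within the groups, the metallothioneins did not all follow the same order of arrays. In the arrays labelled miR-331-3p, 5 of the 6 tested metallothioneins were highest in array C, and MT1X was lowest there. Array A of that group was the lowest for 4 of the 6. In the miR-NC arrays, A was lowest for 4 and C highest for 3, among them MT1X and MT2A. MT1F ran the other way from MT1X in both groups, with deviations from the group mean of 0.11, 0.03 and -0.15 in the miR-NC arrays where MT1X had -0.15, 0.05 and 0.11. In the miR-331-3p arrays MT1F deviated by -0.14, 0.02 and 0.12, and MT1X by 0.13, 0.04 and -0.17. The order among arrays, which the choice of genes did not use, was thus opposite for these 2 metallothioneins although the signal of both was higher with the label miR-331-3p. Among the 15 metallothionein pairs, this pair had the lowest correlation of deviations, at -0.90. Of the 10 pairs without MT1X, 8 correlated positively, with a median of 0.54, as did 1 of the 5 pairs with MT1X. MTF1 shared its lowest arrays with MT1F, namely miR-NC array C and miR-331-3p array A, and their deviations correlated at 0.82. The other tested metallothioneins followed MTF1 less or not at all. Their correlations with it were 0.30 for MT1G, 0.03 for MT1H, -0.03 for MT1E, -0.22 for MT2A and -0.50 for MT1X. SLC30A1 correlated with MTF1 at 0.51 on probe 1 and 0.73 on probe 2. With 6 arrays these orders are a description only, and all probes share the same RNA on each array.

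**Figure D3:**
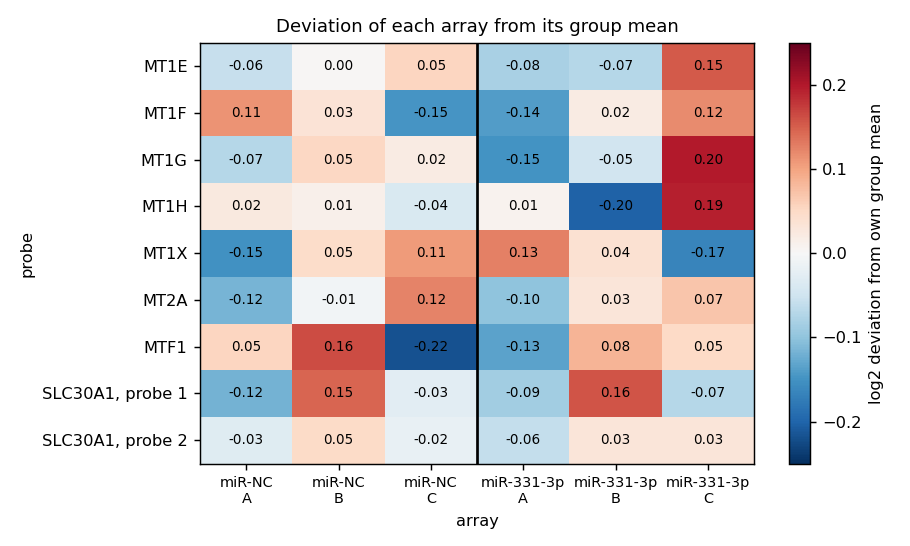
Deviation of each array (columns) from the mean of its own group, in log2 units, for the 9 tested probes (rows), with red above and blue below the group mean. Array C labelled miR-331-3p is above its group mean for MT1E, MT1F, MT1G, MT1H and MT2A (0.07 to 0.20) and below it for MT1X (-0.17).

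The metallothionein genes lie side by side on chromosome 16 in the RefSeq annotation (GRCh38.p14), in the order MT4, MT3, MT2A, MT1L, MT1E, MT1M, MT1JP, MT1A, MT1DP, MT1CP, MT1B, MT1F, MT1G, MT1H, MT1IP and MT1X. The signal was higher in the miR-331-3p arrays at both ends of the row of tested genes, MT2A and MT1X, and between them at MT1E and at the run of MT1F, MT1G and MT1H. Between MT1E and MT1F, MT1M was under the minimum signal, as given above. The other cluster members between and before the tested genes that had a named probe, MT1B, MT1L, MT3 and MT4, were under it too. MT3 is known from the brain and MT4 from stratified epithelium, MT1L is a transcribed pseudogene, and MT1B is a further metallothionein 1 gene. Their array values lay between 6.65 and 6.96 with differences from -0.02 to 0.05, a range in which no difference was measurable. The window of MT1B and that of MT4 each held 3 metal response element cores, and 1.58% of all windows held at least 3.

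The genes on both sides of the cluster were compared as a local reference. Of 9 neighbours, 4 had a tested probe, NUDT21, OGFOD1 and BBS2 on the MT4 side and NUP93 on the MT1X side. None of their 6 probes was past the threshold by limma, 1 was higher and 1 lower at an unadjusted p under 0.05, and the methods' t-test gave none after adjustment and 1 lower before it. Their differences ran from -0.29 for NUDT21, a subunit of the mRNA 3′ end processing factor CFIm, with an adjusted p of 0.0671, to 0.20 for OGFOD1, a hydroxylase of a ribosomal protein. The median was 0.04, and NUP93, the gene next to MT1X, had a difference of 0.01.

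**Figure D4:**
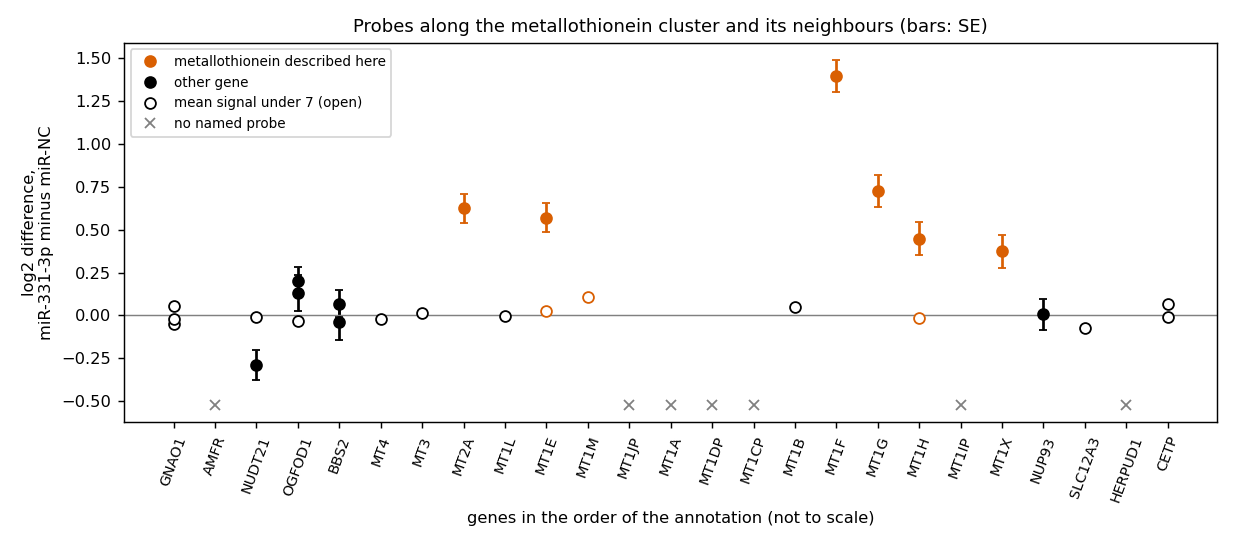
Log2 difference, arrays labelled miR-331-3p minus miR-NC (y axis, bars SE), of each probe of the metallothionein cluster and its neighbours in the order of the annotation, not to scale. Orange points are the metallothioneins described here, open points are under the minimum signal, and crosses mark genes with no named probe here; MT1F stands highest at 1.40 and the neighbours lie between -0.29 and 0.20.

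These neighbours and the other genes of zinc and metal handling made up 7 lists, which held 83 genes, 52 of them with a tested probe. Of their 70 tested probes, 6 were called higher and 7 lower by limma, against 4.30% and 3.66% of all probes. The methods' t-test called 3 higher and 0 lower after adjustment, and 9 and 10 before it. Leaving out SLC30A1, 7 probes of the SLC30 family were tested. Of these, 0 were called higher by limma, 0 also at an unadjusted p under 0.05 and by the methods' t-test after adjustment. Limma called 2 lower, and the median difference of the 7 was -0.18. That median depended on the setting. It was -0.0076 over all 16 probes of the list with no filter, and -0.10 without miR-331-3p array C.

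SLC30A4, which moves zinc into vesicles, gave 7.78, 7.42 and 7.44 in the miR-NC arrays and 7.12, 7.18 and 6.84 in the miR-331-3p arrays on its probe 1. It fell by 0.50 ± 0.12 (SE) with an adjusted p of 0.0248. The call was lost without the filter on low signal and without miR-NC array A or C, where the adjusted p was 0.0714, 0.0880 and 0.0547, and its probe 2 had a difference of -0.18. SLC30A5, a zinc transporter of the early secretory pathway, fell by 0.35 ± 0.091 on probe 2 (adjusted p of 0.0386), whereas its probe 1 had a difference of 0.09 and an adjusted p of 0.578. That call was lost without any array other than miR-331-3p A, with adjusted p from 0.0527 to 0.162, and without the filter, with 0.0672. SLC30A7, a zinc transporter of the Golgi apparatus, had a difference of -0.22 and an adjusted p of 0.151. SLC30A1 was therefore the only gene of the family with a tested probe past the threshold for a higher signal, having been selected on that value.

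Zinc importers of the SLC39 family, which work in the opposite direction to SLC30A1, had 16 tested probes. Of these, 0 were called higher and 2 lower by limma, with 1 higher and 5 lower at an unadjusted p under 0.05, and the methods' t-test called none after adjustment. The median difference was -0.05. SLC39A14, an importer of zinc, iron and manganese, gave 9.43, 9.27 and 9.48 in the miR-NC arrays and 8.97, 8.99 and 8.86 in the others, and fell by 0.45 ± 0.081 (SE, adjusted p of 0.00655). SLC39A10, a zinc importer of the plasma membrane, gave 8.30, 8.29 and 8.27 against 7.87, 7.98 and 7.82, and fell by 0.40 ± 0.073 (adjusted p of 0.00770). Both had groups that did not overlap. SLC39A1, the importer long studied in prostate cells, had a difference of 0.09 with an adjusted p of 0.657.

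Genes that respond to metals and oxidants were compared because several are induced by the same metals as metallothioneins. Of 17 tested probes, 5 of 3 genes were called higher and 1 lower, against 4.30% and 3.66% of all probes. The median difference was 0.06. The 11 probes not called had differences from -0.24 for DNAJB1 to 0.225 for NDRG1, with adjusted p from 0.113 to 0.881. HMOX1, heme oxygenase 1, gave 9.31, 9.13 and 9.27 in the miR-NC arrays and 10.62, 10.66 and 10.89 in the miR-331-3p arrays. It rose by 1.49 ± 0.091 (SE, 2.81-fold, adjusted p of 7.23e-06), and array C labelled miR-331-3p was the highest, as for MT1F. Both probes of FTL, the ferritin light chain, rose by 0.70 ± 0.073 and 0.80 ± 0.080, with adjusted p of 0.000248 and 0.000170. GCLM, the regulatory subunit of the enzyme that starts glutathione synthesis, rose by 0.31 and 0.33 on its 2 probes (adjusted p of 0.0361 and 0.0402). SLC7A11, which imports cystine, fell by 0.29 with an adjusted p of 0.0498. The calls of HMOX1 and FTL held in every alternative fit, while those of GCLM and SLC7A11 were lost in several, among them the fits without miR-NC B or C and without miR-331-3p A or B. SLC7A11 was also not called without the filter, with a minimum of 7.5 or with an intensity trend (adjusted p of 0.0538, 0.0535 and 0.0525), and the GCLM probes not with an intensity trend (probe 1, 0.0541) or without the filter (probe 2, 0.0595).

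Copper also binds metallothioneins, and 15 probes of copper handling genes were tested. One was called higher and another lower, with a median difference of 0.01. SLC31A1, the main copper importer of the plasma membrane, gave 10.39, 10.28 and 10.53 in the miR-NC arrays and 9.68, 9.67 and 9.30 in the miR-331-3p arrays. It fell by 0.85 ± 0.11 (SE, adjusted p of 0.000977), with no overlap of the groups. The methods' t-test did not call it (adjusted p of 0.103). COMMD1, which takes part in copper export and in NF-kappaB control, rose by 0.44 ± 0.11 (adjusted p of 0.0262). That call was lost without any of the miR-NC arrays or without miR-331-3p B (adjusted p from 0.0519 to 0.107). It was also lost without the filter (0.0644) and with the methods' t-test (0.2235).

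Factors other than MTF1 that are known to act on metallothionein promoters had 9 tested probes. By limma 0 were called higher (0 at an unadjusted p under 0.05, and 0 by the methods' t-test), and 1 was lower, with a median difference of -0.04. The lower probe was that of SP1, a general activator that binds GC boxes, which fell by 0.27 ± 0.070 (SE, adjusted p of 0.0392). That call was lost without any array other than miR-331-3p C, with adjusted p from 0.0722 to 0.126, and also with a minimum of 7.5 (0.0507) or an intensity trend (0.0749). The difference between MTF1 and these factors was not tested.

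**Figure D5:**
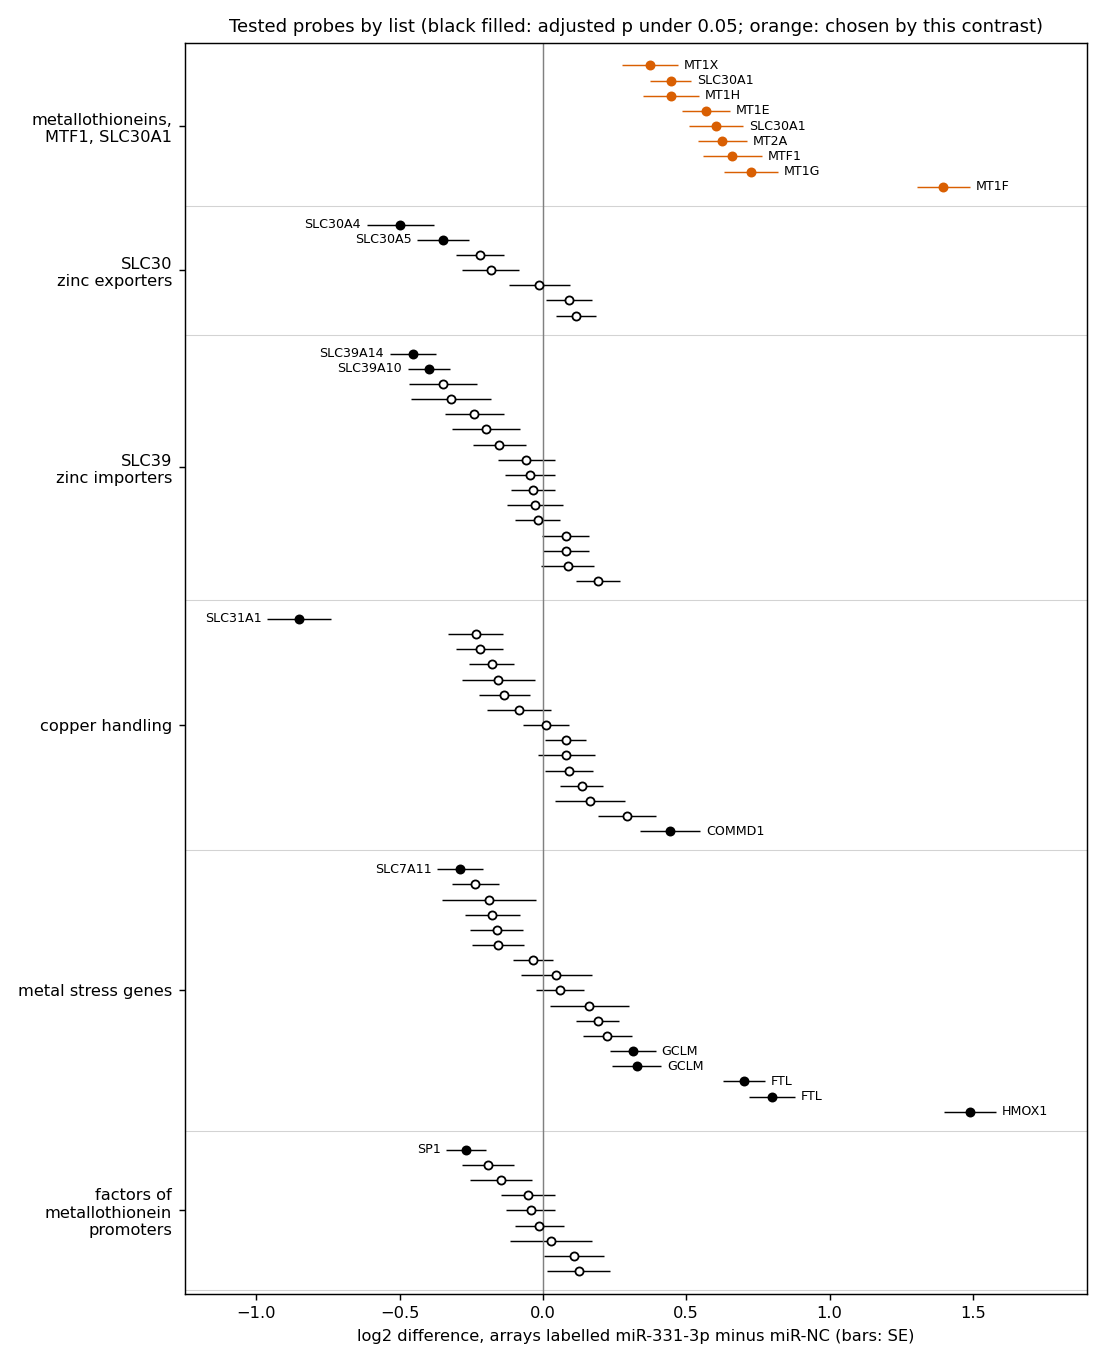
Log2 difference, arrays labelled miR-331-3p minus miR-NC (x axis, bars SE), of every tested probe of the genes described here (orange) and of 5 lists of zinc, copper and metal response genes (black, filled where the adjusted p was under 0.05). HMOX1 at 1.49 and both FTL probes lie among or beyond the orange points, while called probes of SLC30A4, SLC30A5, SLC39A10, SLC39A14 and SLC31A1 lie on the lower side.

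The mean profile of the 6 tested metallothioneins was 10.03, 10.09 and 10.09 in the miR-NC arrays and 10.70, 10.72 and 10.85 in the miR-331-3p arrays. The 5 genes whose values followed it most closely were UBE2L6 (Pearson's r of 0.999), an enzyme of ISG15 conjugation, KIF5C, a kinesin heavy chain, MICALL1, an endosomal adaptor, ZPR1, a zinc finger protein, and AGBL5, a carboxypeptidase of tubulin (0.998 each). Their differences were 0.53, 0.93, 0.46, 0.67 and 0.60. As both groups lie apart in each of them, r over 6 arrays largely measures that difference, and 103 of 13511 named probes had an r above 0.98.

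The LNCaP label was checked against luminal prostate genes, of which KLK3, KLK2, TMPRSS2, FOLH1, HOXB13 and STEAP2 were above the minimum signal. TMPRSS2 and KLK2, both androgen-responsive, rose by 0.53 and 0.33 (adjusted p of 0.00228 and 0.0149), and KLK2 was not called without miR-NC array A or B (adjusted p of 0.0576 and 0.0674). KLK3, also androgen-responsive, had a difference of -0.23 with an adjusted p of 0.162, and HOXB13 and the tested probes of STEAP2 had differences of 0.01, 0.02 and 0.0036. Among markers of other cells, KRT5, KRT14 and PTPRC were under the minimum signal, and CDH2, PECAM1 and COL1A1 had differences between -0.07 and 0.02 with adjusted p from 0.658 to 0.926. VIM, the intermediate filament of mesenchymal cells, rose by 0.60 and 0.51 on its 2 probes (adjusted p of 0.00135 and 0.00288). With the methods' t-test, neither VIM probe nor TMPRSS2 was called, with adjusted p of 0.0725, 0.0767 and 0.0732. Over all 10 probes of that list, tested or not, the mean level was 7.09 to 7.12 in the miR-NC arrays and 7.19 to 7.24 in the others. The part of these genes in the differences of the metallothioneins was not tested.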

How the data were processed

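LNCaP cells transfected for 24 h with 30 nM miR-331-3p or miR-NC were profiled on 6 Illumina Human-6 v3 arrays, 3 per group by the labels. The authors deposited log2 values, made from raw signals by background correction and variance stabilization in lumi and by quantile normalization in Partek Genomics Suite. Such values may understate changes of dim probes. They ran from 6.52 to 13.94, and the median of every array was 6.872. A table of raw signals has 12 columns whose names match no label, and these were not used.

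Gene names came from the platform annotation, brought up to date through gene identifiers (GRCh38.p14). Of 48802 probes, 27577 had a single symbol, 13 had several and 21212 were unnamed. Probes of MELTF and MYT1, which carry MTF1 as an older alias, belong to other genes and were left out. Probes with a mean of at least 7 were tested, 16752 in all, with limma 3.58.1 (lmFit and eBayes, two-sided, without a block) in R 4.3.3. P-values were adjusted by Benjamini-Hochberg over all of them at a threshold of 0.05, after a test on simulated data. They measure the spread between arrays, which may be technical, and 3 arrays per group limit the precision. An exact permutation test of 3 against 3 cannot go below 0.1.

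The genes and lists were chosen with earlier results of these data known. Named genes were every member probe, up to 4 called genes of each list with the largest differences, the 5 genes most like the mean metallothionein profile, and SLC39A1, SLC30A4, SLC30A5 and SLC30A7. Genes of the 16q13 neighbourhood were taken in annotation order. Tables and figures were made with Python 3.11.15, pandas 2.3.3, numpy 2.4.6 and matplotlib 3.10.9. Alternatives were no filter, a minimum of 7.5, the methods' t-test with the same adjustment, a replicate block and array weights. Further ones were cyclic loess on the deposited values, an intensity trend and leaving out each array.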

Additional observations from a re-analysis of the deposited data

How the results depend on the processing

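No called difference changed its direction under any alternative run. Of 479 alternative values of single differences, 407 stayed on the same side of the threshold and 72 were no longer past it. The 407 include values of probes that the main fit did not call, such as NUP93 and OGFOD1, which had no call to lose. The share of calls that were lost is thus larger than these counts give. The members' median of 0.60 became 0.51 with no filter, which added the 3 dim probes.

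With the methods' t-test, 115 probes were called higher and 49 lower after adjustment (720 and 613 by limma). These included 2 of the 9 members' probes, MT1F and SLC30A1 probe 2, and 3 higher and 0 lower on the other lists (6 and 7). The methods name no adjustment. Without it, all 9 tested members' probes were under 0.05, a count from which nothing is read because the same contrast chose them. On the other lists, 9 higher and 10 lower were under 0.05 without it. By limma, the lower calls on those lists were 4 with no filter, and also 4 when the minimum was 7.5. Leaving out 1 array gave 363 to 765 higher and 263 to 697 lower over all probes, 7 to 9 for the members (8 with no filter, without MT1X), and 3 to 7 higher and 3 to 8 lower on the other lists. Both counts over all probes moved by over 1.5 times without miR-NC A, B or C and without array B labelled miR-331-3p. A fit without an array has fewer samples.

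The main fit did not pair the arrays by the letters A, B and C. Deviations of same-lettered arrays correlated at -0.043, 0.0174 and 0.224. Arrays with different letters were not compared in this way, so these values do not settle the pairing. With the replicate block, 742 probes were called higher and 670 lower, 9 for the members, and 6 and 5 on the other lists, where SP1 and SLC7A11 were no longer called (adjusted p of 0.0610 and 0.0519). The number of arrays limits what could be detected, and dim probes such as MT1M gave no measurable difference.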
